A study of Mus musculus with 2 samples.

Results

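The Maf transcription factors of pancreatic islets were examined for N6-methyladenosine (m6A), a methyl mark on adenosines of messenger RNA. The genes were Mafa, Maf, Maff, Mafg and Mafk, and every row of the authors' deposited site list that carried one of these symbols or gene identifiers was taken. This gave 1 site on 1 gene, Mafa, of 8987 sites on 4953 genes. Maf, Maff, Mafg and Mafk had no site in the list. The share of 1 in 5 compares with 22.2% of all 21900 protein-coding genes that had at least 1 site, so the number of Maf genes with a site is close to the background.

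The RNA came from islets of 129sv mice aged 2 weeks, an age at which beta cells are still maturing. It was sequenced as 1 immunoprecipitate library, made with an anti-m6A antibody, and 1 input library that was not pulled down. Both groups share strain, tissue and age, no genotype or treatment separates them, and the labels do not say how many mice went into each library. With 1 library per group no value below has a replicate, an error across samples or a p-value of its own. Read depth is unknown, and the level of each transcript in the input was not analysed, so the absence of a site from the list is not a measure of unmethylated RNA.

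Maf proteins are basic leucine zipper (bZIP) factors, which bind DNA as dimers through a basic region and a zipper of leucines. The large Mafs, here MafA and c-Maf, carry an activation domain of their own. MafA binds the insulin promoter and is a hallmark of mature beta cells, while c-Maf, the product of Maf, is known in the islet from glucagon-producing alpha cells. The small Mafs, MafF, MafG and MafK, lack the activation domain and act through their partners, the CNC factors such as NRF2, which activate genes, and the BACH factors, which repress them.

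The Mafa site lay on GRCm38 chromosome 15 from 75746843 to 75747922, counted from 1, a length of 1080 bases. The annotated gene runs from 75745501 to 75748321, a span of 2821 bases, and the site was assigned to the transcript that RefSeq lists for it. Mafa is an intronless gene, so its span is all exon, and the site covered 38.3% of it as a single block. On the side of the lower coordinates 1342 bases of the gene lay outside the site, and on the side of the higher coordinates 399 bases. The map of the gene spans shows this placement and the 4 genes without a site. Which bases within the block carry m6A cannot be read from an interval of this length. The 1080 bases are the length of 360 whole codons, and where the coding sequence lies in the gene was not looked at. Whether the edges of the site follow the reads or the transcript model used to assign sites was not tested. Its length and covered share may therefore in part be those of the annotation.

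**Figure D1:**
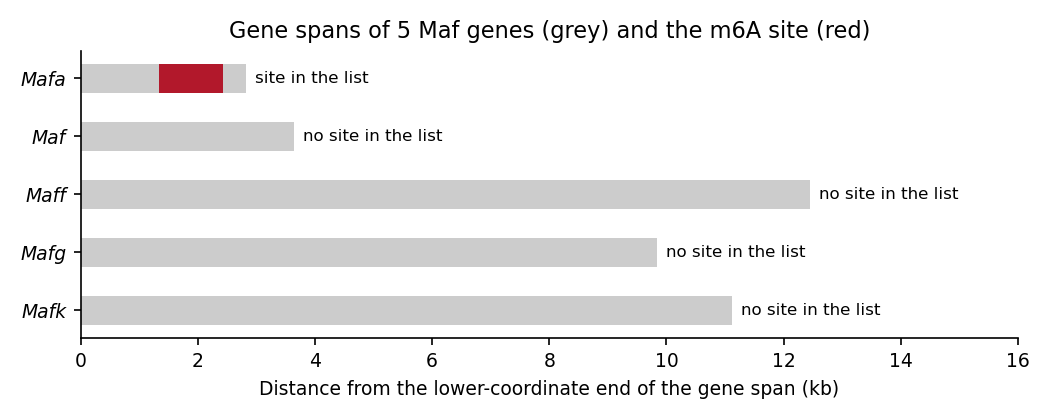
Gene spans of the 5 Maf genes in GRCm38, drawn as grey bars from the end with the lower coordinate, with the distance in kilobases on the horizontal axis. The red block is the only Maf site of the list, 1080 bases within the 2821 bases of Mafa; the spans of Maf, Maff, Mafg and Mafk hold none.

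Mafa combined a long interval and a very high score with a moderate fold. The deposited fold enrichment, a linear ratio of immunoprecipitate over the background expected from the input, was 12.52. That was 1.76 times the median of all sites (7.13), and 1291 sites were stronger. Among the 2958 genes that, like Mafa, had a single site, its fold lay at percentile 87.5. By length it lay at percentile 91.2 of all sites, and 792 sites were longer. The share of the gene covered stood higher still, at percentile 98.1 of the 8942 sites on genes with a known span. These spans include introns, which Mafa lacks, so this rank depends on gene structure as well as on the site. The length rank, too, may in part be that of the annotation.

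The deposited score, which is -10 times the log10 of the peak caller's p, was 3100 for Mafa, a value it shared with 118 other sites and that 4 sites exceeded. So many ties may mark an upper limit of the caller's score, which was not settled here, so the score does not rank Mafa among these sites. These 119 sites are 1.32% of the list, and all have the lowest false discovery rate in it, 27.16%. A rate below 100% was given for 25.7% of all sites. Mafa kept its site with a rate below 100%, as 7.29% of protein-coding genes did, and with one below 50%, as 1.61% did. Within this group the Mafa fold was low, at percentile 19.7, with 95 sites above it and a median of 20.25. Its length was above the group's median of 372 bases, with 24 of the 119 sites longer. The plot of fold against length shows Mafa at the long, lower right side of the sites that share its score.

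**Figure D2:**
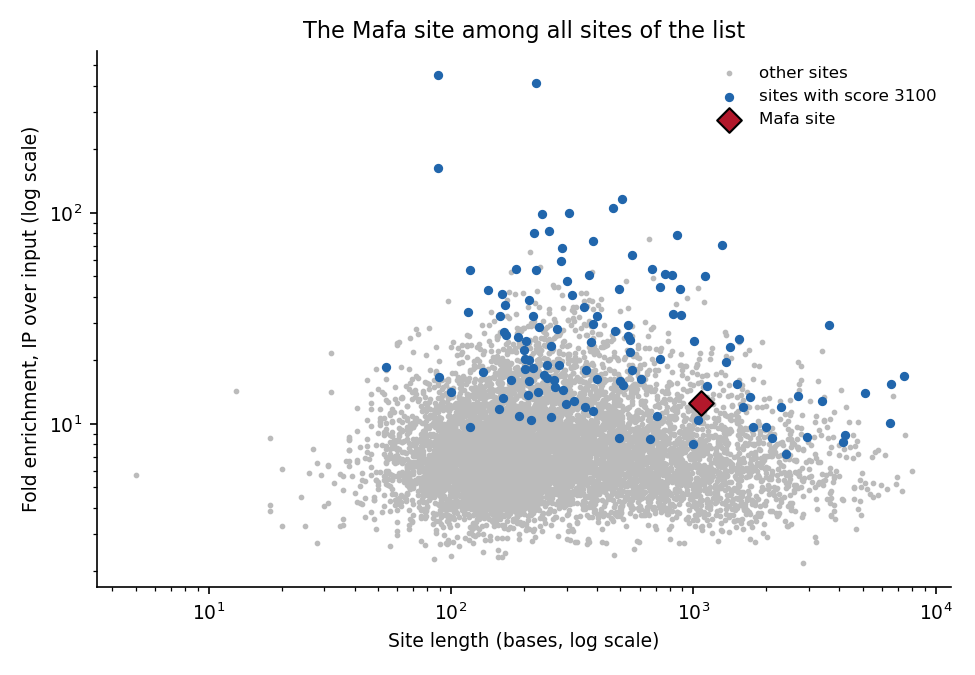
Fold enrichment of immunoprecipitate over input against site length for all 8987 sites, both on log axes, 1 point per site. Blue points share the score 3100, and the red diamond is the Mafa site, at 1080 bases and a fold of 12.52.

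Among sites of like length Mafa had a fold above the median and the score 3100, which may be capped. There were 511 sites between 864 and 1350 bases. Their median fold was 6.52 and their median score 146, and Mafa lay at percentile 89.7 of their folds. Of these sites, 143 had a false discovery rate below 100%, and 9, Mafa included, had the score 3100. Among the other 8 were sites on Sparcl1 (fold 8.07), Hsp90aa1 (10.38), Arid1a (15.14), Ap3d1 (24.76), Trim44 (32.88), Yy1 (50.06) and the predicted gene Gm5641 (70.13). Closest to Mafa in fold within this length range were single sites on Tmem28 (12.54), Golim4 (12.44), Ccdc130 (12.76), the transcript AK053727 (12.78) and the neuroligin gene Nlgn2 (12.19), with scores from 183.64 to 532.68. None of these 5 approached the score of Mafa.

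Sites near Mafa belonged to other genes. The next site on the lower side lay 147288 bases away on Gpihbp1, which anchors lipoprotein lipase to capillaries, with a fold of 13.67. On the higher side the next site lay 30959 bases away on the zinc finger gene Zc3h3, with a fold of 10.42. No interval assigned to another gene overlapped the span of Mafa. Its fold was at percentile 81.6 of the 388 sites of chromosome 15.

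Maf, the other large Maf gene looked at, spans 3642 bases on chromosome 8, from 115703253 to 115706894. No interval of any gene overlapped this span. The nearest sites lay far off, on the tumour suppressor gene Wwox (1263375 bases away, fold 8.53) and on the chromodomain gene Cdyl2 (888068 bases away, fold 7.26). Genes with short spans seldom had a site: of 3929 protein-coding genes with at most the span of Maf, Mafa among them, 184 had one (4.68%). These genes were taken by span alone, whether or not islets express them, and why Maf had no site was not tested.

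The small Maf genes had no site and no overlapping interval either. Maff, known as a gene induced by stress, lies on chromosome 15 from 79346621 to 79359078, Mafg on chromosome 11 from 120625117 to 120634955 and Mafk on chromosome 5 from 139791536 to 139802653. Of the 1276 protein-coding genes that span as much as these genes, from 9839 to 12458 bases, 201 (15.8%) had a site. They too were taken without regard to expression. Sites were present on the genes around Maff, Mafg and Mafk. Next to Mafk a site lay 18742 bases away on Ints1, a subunit of the Integrator complex (fold 7.47). Next to Mafg one lay 26752 bases away on the RNA export factor gene Alyref (6.42), and next to Maff one lay 44107 bases away on Tmem184b (8.26).

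The dimer partners of the small Mafs carried sites of low to middle fold. Of 6 CNC and BACH genes, 3 had a site each (50% of the list, against 22.2% of protein-coding genes), and all 3 folds were below that of Mafa. The count was 1 with a fold of at least 5, with a score of at least 100 or with a false discovery rate below 100%. The shares of protein-coding genes at these limits were 19.7%, 15.4% and 7.29%. Nfe2l2, which encodes NRF2, the activator of the response to oxidants, had a site of 261 bases on chromosome 2 (75704364 to 75704624) with a fold of 7.67, a score of 74.25 and a false discovery rate of 100%. Nfe2l1, which encodes NRF1, a related factor known for control of proteasome genes, had a longer site of 1026 bases on chromosome 11 (96827198 to 96828223) with a fold of 3.6 and a rate of 96.88%. Bach1, a repressor released by haem, had a site of 403 bases with a fold of 3.57. The erythroid gene Nfe2, Nfe2l3 and Bach2 had none.

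The NRF2 pathway, in which small Mafs and NRF2 bind antioxidant response elements, had sites on 4 of 15 genes (26.7%), close to the 22.2% of protein-coding genes. These were Gclc, an enzyme subunit of glutathione synthesis (fold 8.99), the thioredoxin reductase gene Txnrd1 (8.85, 2 sites), Cul3, a scaffold of the ligase that degrades NRF2 (7.51), and the ferritin heavy chain gene Fth1 (6.46, 2 sites). The NRF2 sensor gene Keap1 had no site, nor did the ligase subunit gene Rbx1, the haem oxygenase gene Hmox1 and the quinone reductase gene Nqo1, among 11 genes without one. All 4 folds were below that of Mafa. With a false discovery rate below 100%, 3 of the 15 genes had a site, against 7.29% of protein-coding genes.

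Across the wider bZIP family Mafa had the fifth largest fold. Together with the CNC and BACH genes and Mafa itself, 19 bZIP genes had a site of 50 looked at, with folds of the strongest site from 3.57 to 14.67 and a median of 8.78. Of the 39 bZIP genes outside the Maf, CNC and BACH groups, 15 (38.5%) had a site, against 22.2% of protein-coding genes, and 8 had one with a false discovery rate below 100%, against 7.29%. The 4 genes above Mafa were Creb3l2, a factor of the secretory pathway cleaved in the Golgi (14.67, 147 bases), the PAR bZIP factor gene Tef (13.92, 307 bases), the cAMP response factor gene Creb1 (13.45, 217 bases) and Cebpb, a factor of inflammation and metabolism (13.36, 1518 bases). Below it came Xbp1, a factor of the unfolded protein response (11.52, 385 bases). Xbp1 was the other gene of the 19 with the possibly capped score of 3100 and a rate of 27.16%, and the rates of the 4 genes above Mafa ran from 59.8% to 96.95%. Junb, Fos, Fosb and Fosl1, of the AP-1 group, were among the 24 without a site.

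**Figure D3:**
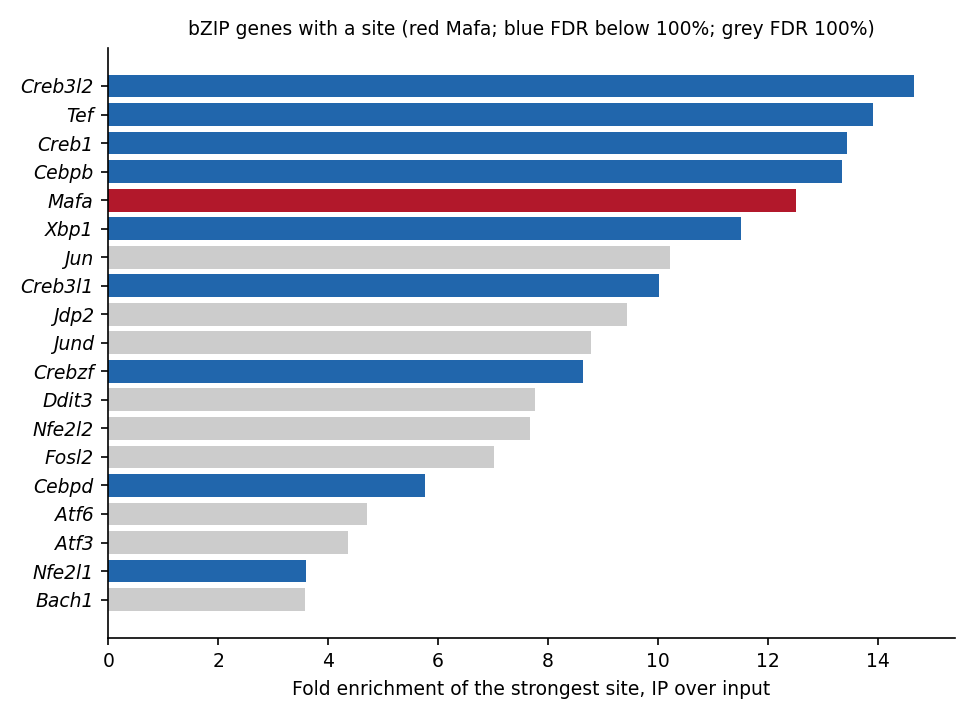
Fold enrichment of the strongest site, immunoprecipitate over input, for the 19 bZIP genes with a site, 1 bar per gene. Mafa is red with a fold of 12.52, behind Creb3l2, Tef, Creb1 and Cebpb; blue bars have a false discovery rate below 100% and grey bars a rate of 100%.

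Long blocks were also found on other intronless bZIP genes. The site on Cebpb covered its whole annotated span (100%), as did the site of 2878 bases on Jund (fold 8.78), and the site of 3189 bases on Jun covered 100.1% of the span (fold 10.22), running past its end. On Cebpd the site of 1263 bases covered 55.9% (fold 5.76). Junb and Cebpa, also intronless, had no site. Mafa, with 38.3%, thus had the smallest covered share of these 5 intronless genes with a site, yet the highest score, against 106.67 for Jund, 266.3 for Jun, 297.12 for Cebpd and 442.39 for Cebpb. The choice of these genes was made after their values were seen. The edges of these sites may follow transcript models, which was not tested, so the shares may in part be those of the annotation.

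Genes that act upstream of Mafa had folds below its own. Of 11 regulators, 4 (36.4%) had a site, against 22.2% of protein-coding genes. The count was 2 with a score of at least 100 and 1 with a false discovery rate below 100%, against 15.4% and 7.29% of protein-coding genes. The thyroid hormone receptor gene Thra had 4 sites with folds from 6.62 to 12.26, the largest close to the Mafa fold but with a score of 231.84. Thyroid hormone is known from rats to raise Mafa in young beta cells. Neurod1, an endocrine bHLH factor that also binds the insulin promoter, had a site of 2528 bases with a fold of 9.24, and the other thyroid receptor gene, Thrb, a fold of 5.72. Pdx1, Nkx2-2, Nkx6-1 and Foxa2, known for binding the Mafa enhancer or for maintaining beta cells, were among the 7 without a site.

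Target genes of MafA had sites about as often as protein-coding genes at large. A site was found on 3 of 15 (20%), among them the prolactin receptor gene Prlr (fold 9.4) and Neurod1 (9.24), and each of the 3 sites had a rate of 100%. The insulin genes Ins1 and Ins2, the glucose transporter gene Slc2a2 and the incretin receptor gene Glp1r were among the 12 without one. The share is next to the 22.2% of all protein-coding genes and says nothing particular to these targets. With a score of at least 100 the count was 0, against 15.4% of protein-coding genes.

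Cofactors of the MafA protein included genes with several sites. MafA recruits the MLL3/4 complex, which methylates histone H3 at enhancers, and 7 of 10 of its genes (70%) had a site, against 22.2% of protein-coding genes, with 20 sites in all. With a rate below 100% the count was 4, against 7.29% of protein-coding genes. Paxip1 (22.66) and the methyltransferase gene Kmt2c (18.07) were above Mafa in fold, and Kmt2d (8.64, 2952 bases) shared its score of 3100. Pagr1a had a fold of 8.44, and Kdm6a, Wdr5 and Dpy30 had no site. Of 7 genes for the turnover and acetylation of MafA, 5 (71.4%) had a site, against 22.2% of protein-coding genes. With a rate below 100% the count was 1 of the 7, against 7.29% of protein-coding genes. Among the 5 with any site were the acetyltransferase genes Crebbp (12.24, 5 sites), Kat2b (9.25) and Ep300 (7.52, 4 sites) and the stress kinase gene Mapk14 (9.32). Gsk3a, of the 2 GSK3 kinases that phosphorylate MafA, had a fold of 6.59, while Gsk3b and the proteasome activator gene Psme3 had no site. These lists are short, their expression and gene span were not matched, and no test was made of their shares.

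**Figure D4:**
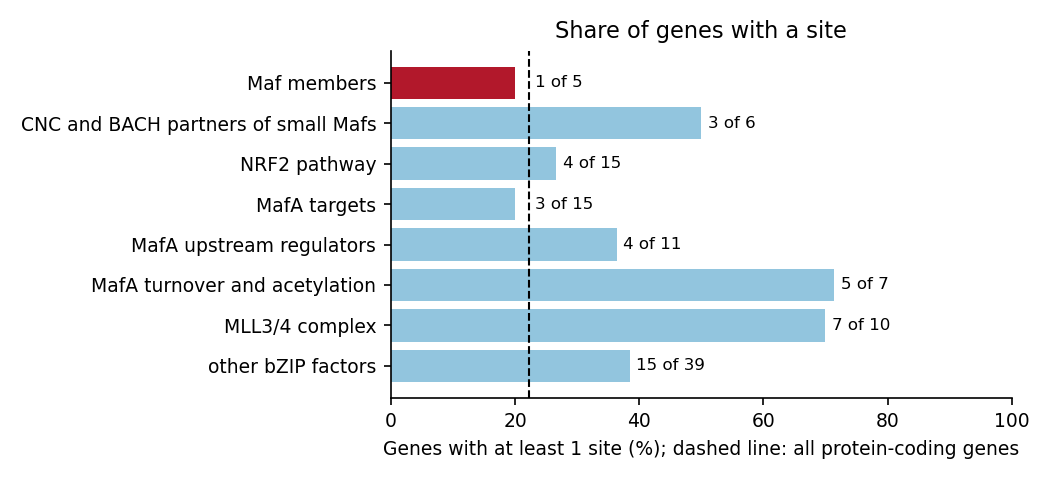
Share of genes with at least 1 site, in percent, for the 5 Maf genes (red) and 7 lists of related genes (blue), with the counts beside each bar. The dashed line marks the 22.2% of all protein-coding genes; the Maf genes lie near it, at 1 of 5.

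In the authors' own annotation Mafa belongs to the pathway of maturity onset diabetes of the young, inherited forms of beta cell failure. The list held 9 genes of this pathway, each with 1 site, and genes of the pathway without a site were not counted. Mnx1, a homeobox factor, had a fold of 13.08 on a site of 1194 bases, and Mafa came second. Foxa3 followed with 10.35, and Neurod1, the hepatocyte factor gene Hnf4a (6.58) and the islet factor gene Rfx6 (5.1) were lower. Mafa was the only one of the 9 with a false discovery rate below 100%, which 25.7% of all sites had. Its possibly capped score of 3100 compares with 180.09 for the next highest of the 9, Mnx1. The pathway was looked at because it holds Mafa.

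The tissue label cannot be checked from levels of expression, since the list holds sites alone. Of 10 genes listed as beta cell markers 2 had a site, Chga (27.48) and Chgb (21.38), granin genes that other endocrine cells also express. The other 8, with Ins1, Ins2 and Iapp among them, had none. Of 5 alpha cell markers 2 had a site, and of the delta cell markers Sst and Hhex 0. Of 7 acinar markers 2 had one, of 4 endothelial markers 4, of 4 fibroblast markers 2 and of 4 leukocyte markers 0. Over all protein-coding genes the share was 22.2%. With a false discovery rate below 100% the counts were 2 beta, 2 alpha, 0 delta, 1 acinar, 3 endothelial, 1 fibroblast and 0 leukocyte, against 7.29%. These small counts are no measure of cell content. In RNA of whole islets, fewer cells of a type and less RNA per cell cannot be told apart, and which cells the Mafa reads came from was not analysed.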

How the data were processed

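Per the labels' protocols and the submitters' processing notes, reads were trimmed with cutadapt 1.9.3 and aligned with HISAT2 2.0.4, sites were called with MACS, and sites were assigned to transcripts with the authors' scripts. The labels name human HG19 and mouse mm10. Of 8942 sites matched to a gene of GRCm38.p6, 8924 overlapped its span, so coordinates are GRCm38. Per the file headers, the deposited values are a fold enrichment (a linear ratio), a score (-10 times log10 of the p-value) and a false discovery rate, read as a percent. They are the authors' values, were not recomputed, and were used only to describe and rank sites within the list. Peak numbers reach 90659, so further calls may lie outside the list.

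Members were matched by symbol and gene identifier. Percentiles place ties midway. The 7 related lists hold 100 distinct genes, all matched to RefSeq. Every Maf gene is named, and of each list the genes with a site up to 4 by strongest fold and up to 4 genes without one; others were added after their values were seen. Members and lists were chosen with earlier results of these data known. Alternatives were limits on fold, score and false discovery rate, merging, the median fold per gene and other comparison genes. The rank function was tested on simulated data. Python 3.11.15 and pandas 2.3.3 were used. No sequence of Mafa was used. Some results are not reported here.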

Additional observations from a re-analysis of the deposited data

How the results depend on the processing

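Mafa kept its site under a fold of at least 5, a score of at least 100, a false discovery rate below 100% and one below 50%, and merging left 1 site. The percentile of its fold among genes was 78.77 and moved with the comparison set. It was 76.16 with a fold of at least 5, 69.5 with a score of at least 100, 45.23 with a rate below 100% and 24.59 with one below 50%, while the median strongest fold of the genes left rose from 8.1 to 8.64, 9.755, 13.22 and 18.285. It was 88.31 with the median fold per gene, 87.54 among genes with 1 site and 84.6 among the 500 genes nearest in span. The length percentile, 91.18, was 90.5 with a score of at least 100 and 98.07 as a share of the gene span, introns of other genes included. List counts fell because fewer sites passed. With a rate below 100%, 1 of 6 CNC and BACH partners, 4 of 10 MLL3/4 and 0 of 15 target genes had a site. So did 1 of 7 turnover, 1 of 11 upstream and 8 of 39 bZIP genes, against 7.29% of protein-coding genes. With a rate below 50% these counts, in the same order, were 0, 2, 0, 0, 0 and 1, and 0 for the NRF2 pathway (background 1.61%). With a score of at least 100 there was 1 CNC or BACH partner, 0 targets and 2 upstream regulators (15.4%), and with a fold of at least 5 there was 1 partner (19.7%). The other 20 alternatives stayed within 1.5 times the count. No paired analysis was possible because each group has 1 library. Depth is unknown, so no fold has an error.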

Other observations

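Further groups of the authors' annotation that hold Mafa were looked at after its values were seen. Under the term insulin secretion the list held 8 genes with 19 sites. By strongest fold 2 genes lay above Mafa, Dgat1, an enzyme of triglyceride synthesis (16.99), and Pclo, a scaffold of secretory active zones (16.54). Pclo also had a site of 711 bases with a fold of 10.86 that shared the score 3100 with Mafa. So 2 of the 19 sites had it, against 1.32% of all sites. Vgf, a granule protein precursor, followed with a fold of 11.1 on a site of 2386 bases. The motor gene Myo5a had 6 sites, with folds from 4.22 to 7.45, and the calcium channel gene Cacna1c had 4, with folds from 3.63 to 7.03.

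Under the pathway of type II diabetes mellitus the list held 16 genes with 32 sites, and 3 genes had a larger fold than Mafa. The phosphatidylinositol kinase subunit gene Pik3r1 had a fold of 17.29, the calcium channel gene Cacna1a 16.07 and the growth kinase gene Mtor 13.82. Mafa was the only gene of this pathway with the score 3100, which 1.32% of all sites had. Of the 32 sites, 8 had a false discovery rate below 100%, close to the 25.7% of all sites.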
